A study of Mus musculus with 6 samples.

Results

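The genes described here are 43 mouse genes for the non-collagenous part of the extracellular matrix: small leucine-rich proteoglycans, elastic fibre proteins and the lysyl oxidases that cross-link them, and glycoproteins such as fibronectin, thrombospondins, SPARC and the nidogens. A gene was followed through the array probe sets that carried its symbol and no other. Of the 43 genes, 40 had at least 1 such probe set (83 probe sets in all), among 18193 genes named on the array. Where several probe sets named a gene, the one with the highest mean of log2(signal + 16) over the 6 arrays stood for it. A gene was tested if that log2 mean reached the level of a signal of 99.4, below which 40% of probe sets lie, which left 38 of the matrix genes. Fbln2 and Spon2 lay under this floor. No probe set named Fbn1 or Efemp2 alone, and the 2 probe sets of Loxl2 also name Gm21451, so these 3 genes were not analysed here.

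RNA came from tdTomato-positive cells sorted from ovaries of female Gli1-CreERT2; Rosa-LSL-tdTomato mice of strain 129S6/SvEvTac at 2 months of age, and it was hybridised to 1 array per sample. Both groups carried the same Cre and reporter and differed in the time of tamoxifen. For 3 samples tamoxifen came before birth, first at E12.5, then at E14.5 and finally at E16.5, and the labels call these cells mesonephros-derived theca. In the other 3 it reached the pups on P1 to P3 through the nursing dam, and the labels call these cells ovary-derived theca. Cre was driven by Gli1, a hedgehog-responsive gene, so each sample holds whatever cells expressed Gli1 while tamoxifen was present, together with their descendants. Origin and time of labelling changed together and cannot be told apart. In sorted bulk RNA, fewer cells of a type and less RNA per cell cannot be told apart either.

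Theca cells surround the growing follicle as an inner steroid-producing layer and an outer fibrous, contractile layer, and the wall they form has to stretch and finally rupture at ovulation. Small leucine-rich proteoglycans bind collagen and set the width and spacing of its fibrils. Elastic fibres are built on a scaffold of fibrillin microfibrils, on which fibulins and microfibril-associated proteins guide the deposition of elastin before lysyl oxidases cross-link it. Matricellular proteins such as SPARC, thrombospondins, tenascins and periostin add little strength of their own and modulate how cells attach to the matrix and receive growth factors.

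No matrix gene passed an adjusted p of 0.05. In limma, 0 of 38 were called with p-values adjusted over all 11703 genes tested, against a background of 0.0427% of all genes. The group nevertheless lay mostly to the higher side. Of 38 members, 28 (73.7%) had a higher log2 mean in mesonephros-derived cells, where 43.5% of all tested genes did. The median log2 change was 0.31, beside −0.08 over all genes tested. At an unadjusted p of 0.05, 9 members were higher, with a background of 6.46%, and 1 was lower, with a background of 7.22%. The 2 groups of arrays did not overlap for 12 members, 31.6%, with a background of 22.2%. Of these, 11 were higher (28.9%, background 9.56%) and 1 was lower (background 12.6%). These shares describe the list and carry no test. Nothing in the labels ties the replicates to separate animals. A p-value here therefore reflects only how far these samples scatter, and that scatter may be technical.

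**Figure D1:**
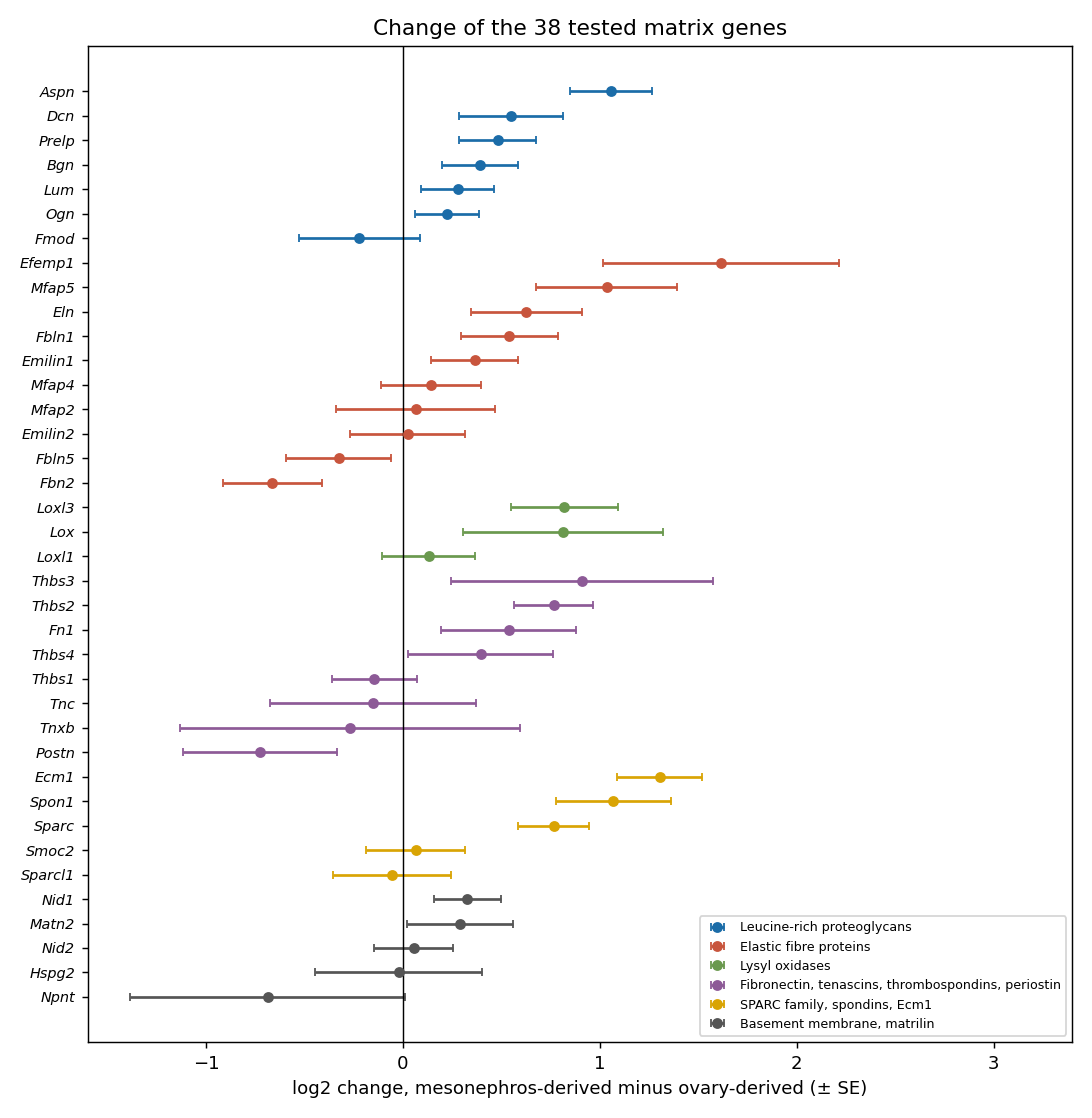
Log2 change of the 38 tested matrix genes, mesonephros-derived minus ovary-derived, with its standard error from limma (3 arrays per group), grouped and coloured by class. Ecm1 at 1.30, Aspn at 1.06, Sparc at 0.77 and Thbs2 at 0.77 have short error bars, while Efemp1 at 1.62 and Tnxb at −0.27 have long ones.

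Some technical measures of the arrays moved with the groups. Ovary-derived arrays correlated with each other at 0.963 to 0.973 and mesonephros-derived arrays at 0.844 to 0.896. Mesonephros-derived replicate 3 correlated more closely with the ovary-derived arrays (0.946 to 0.950) than with its own group (0.876 to 0.896). Gapdh, read at its 3′ end relative to its 5′ end as a gauge of how intact the RNA was, gave ratios of 5.29, 3.48 and 2.63 for mesonephros-derived and 1.94, 2.39 and 2.86 for ovary-derived cells. The poly-A spike-ins, set against their level in ovary-derived samples, read 13.7, 13.0 and 2.22 in mesonephros-derived replicates 1, 2 and 3, and between 0.625 and 1.61 in the ovary-derived replicates. The SD between arrays on the log2 scale was wider in the mesonephros-derived group for 32 of 38 matrix genes (84.2%, against 83.1% of all genes tested), with a median of 0.50 against 0.20. The part of these differences in the changes below was not tested, beyond the alternatives given with them.

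Ecm1, a secreted glycoprotein that binds the proteoglycan perlecan and other matrix proteins, had the smallest p of the 38. It read 2404, 2586 and 1889 in replicates 1, 2 and 3 of the mesonephros-derived cells, and 829, 918 and 996 in the ovary-derived replicates. Every mesonephros-derived array lay well above every ovary-derived array. The means were 2293 ± 361 and 914 ± 83.7 (SD, n = 3 each), 2.47-fold apart, with a log2 change of 1.30 ± 0.22 (SE) and a limma adjusted p of 0.103. The change stayed between 1.21 and 1.44 when any 1 array was left out and was 1.33 after quantile normalization. It was 0.84 ± 0.36 (SE) with the poly-A spike level added to the fit. Because the spike level moved with the groups, changes from that fit are imprecise, here and below. Its SE was wider for every matrix gene, and 0 of all genes tested were called in it.

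Aspn encodes asporin, a leucine-rich proteoglycan that binds collagen and TGF-beta. It read 2529, 2085 and 2022 in mesonephros-derived cells and 1158, 1078 and 924 in ovary-derived cells. The lowest mesonephros-derived array was far above the highest ovary-derived one. The log2 change was 1.06 ± 0.21 (SE), 2.08-fold, with a limma adjusted p of 0.153, and a second probe set of Aspn stood at 0.51 ± 0.31. The change was 1.01 ± 0.40 with the spike covariate and 1.09 after quantile normalization.

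Sparc, a collagen-binding glycoprotein made in quantity by stromal cells, read 24677, 24474 and 18500.1 in mesonephros-derived cells and 11351, 14194 and 14075 in ovary-derived cells. The groups did not overlap, although mesonephros-derived replicate 3 came closer to the ovary-derived arrays than the other two. The log2 change was 0.77 ± 0.18 (SE), 1.70-fold, with a limma adjusted p of 0.214. Another probe set gave 0.73 ± 0.19. The remaining one, with array signals from 11.9 to 280.4, gave −1.73 ± 0.66, without overlap in the opposite direction. With the mean of all probe sets, Sparc stood at −0.08. After quantile normalization the change was 0.14, and with the spike covariate it was 0.29.

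Thbs2 encodes thrombospondin 2, a matricellular protein that restrains angiogenesis. It read 1659.7, 1682 and 1680.1 in mesonephros-derived cells against 951, 1057 and 932 in ovary-derived cells. The mesonephros-derived arrays were nearly equal to each other and all above the ovary-derived arrays. On the log2 scale this came to 0.77 ± 0.20 (SE), 1.70-fold, with a limma adjusted p of 0.234. One other probe set gave 0.53 ± 0.34 and another gave −0.06 ± 0.46. With the spike covariate the change was 0.81, and with the mean of its probe sets 0.41.

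The sequences before the start sites of these 4 genes, the members with the smallest p, are shown because all 4 stood higher together. Each is the 250 bases up to the annotated start, 5′ to 3′ on the gene's own strand, from RefSeq on GRCm38.p6. Ecm1 lies at chr3:95739570-95739819 (minus strand), Aspn at chr13:49544193-49544442 (plus), Sparc at chr11:55420081-55420330 (minus) and Thbs2 at chr17:14694263-14694512 (minus). Capitals mark matches, on either strand, to any of 5 motifs: TATAAA (the TATA box), GGGCGG (the GC box bound by Sp1), TGANTCA (AP-1), GGAATG (TEAD factors) and GACCACCCA (GLI factors).
Ecm1: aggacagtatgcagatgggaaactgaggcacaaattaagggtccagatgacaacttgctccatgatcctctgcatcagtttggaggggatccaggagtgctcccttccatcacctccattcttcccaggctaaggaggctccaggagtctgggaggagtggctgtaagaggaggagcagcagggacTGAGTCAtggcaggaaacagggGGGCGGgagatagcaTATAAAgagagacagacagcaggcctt
Aspn: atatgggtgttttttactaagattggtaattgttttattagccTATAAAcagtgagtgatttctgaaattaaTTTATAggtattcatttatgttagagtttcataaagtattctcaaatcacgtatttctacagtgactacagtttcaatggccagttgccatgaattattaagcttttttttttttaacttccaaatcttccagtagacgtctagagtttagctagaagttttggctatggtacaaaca
Sparc: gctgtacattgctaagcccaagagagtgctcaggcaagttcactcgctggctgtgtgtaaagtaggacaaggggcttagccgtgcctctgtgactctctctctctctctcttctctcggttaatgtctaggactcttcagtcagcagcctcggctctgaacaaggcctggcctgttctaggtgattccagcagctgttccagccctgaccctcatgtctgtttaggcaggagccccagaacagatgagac
Thbs2: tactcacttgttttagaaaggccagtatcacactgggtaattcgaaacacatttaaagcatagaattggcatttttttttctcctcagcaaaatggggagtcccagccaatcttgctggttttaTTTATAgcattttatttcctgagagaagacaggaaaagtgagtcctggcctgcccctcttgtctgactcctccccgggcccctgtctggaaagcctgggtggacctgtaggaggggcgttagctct
Ecm1 held a TATAAA from 27 to 22 bases before the start, a GGGCGG from 42 to 37 bases before it and a TGAGTCA from 64 to 58 bases before it. Aspn held TATAAA from 207 to 202 bases before the start and, on the opposite strand, from 178 to 173 bases before it. Thbs2 held TATAAA on the opposite strand from 126 to 121 bases before the start. None of the 5 motifs matched in the Sparc window. RefSeq start sites were at hand for 23 of the 40 genes (30 windows of this length). Of the windows of all genes (32851), TATAAA was found in 12.4%, GGGCGG in 32.7%, TGANTCA in 6.75%, GGAATG in 12.6% and GACCACCCA in 0.225%. Among the 30 windows of the matrix genes these motifs were found in 7, 15, 3, 5 and 0. A match is a string of letters and does not show that a factor binds there.

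The small leucine-rich proteoglycans were all tested, and 6 of 7 stood higher, with a median log2 change of 0.39 and none called. That median was 0.037 after quantile normalization and 0.25 without mesonephros-derived replicate 2. Prelp, a proteoglycan that anchors basement membranes to collagen, read 3614, 5062 and 3612 against 3030.1, 2885 and 2769. The groups did not overlap, at 0.48 ± 0.20 on the log2 scale (limma adjusted p = 0.346), and Prelp stood at 0.32 without mesonephros-derived replicate 2 and 0.31 with the spike covariate. Ogn, known as osteoglycin or mimecan, read 8149.8, 8707 and 10458 against 7848, 7693 and 7685. Its groups did not overlap either, but the change was small, 0.23 ± 0.16 (limma adjusted p = 0.551), and it turned to −0.10 after quantile normalization. A second probe set of Ogn gave 0.53 ± 0.15.

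Decorin, the most studied of the family and a ligand of both collagen I and TGF-beta, is encoded by Dcn. It read 18673, 9305 and 12829.9 against 7536, 8517 and 11087. Replicate 2 of the mesonephros-derived cells fell inside the ovary-derived range, and the log2 change of 0.55 ± 0.26 (SE) had a limma adjusted p of 0.395. Leaving out mesonephros-derived replicate 1 gave 0.29 and leaving out replicate 2 gave 0.79, and the spike covariate gave 0.27. Lum, which encodes the fibril regulator lumican, stood at 0.28 ± 0.19, with mesonephros-derived replicate 3 at 6524 inside the ovary-derived range of 6256 to 7221. Bgn, which encodes biglycan, read 8125, 12914 and 10851 against 7937, 8217 and 7724, with replicate 1 below the highest ovary-derived array (log2 change 0.39 ± 0.19, limma adjusted p = 0.408), and it was 0.24 without replicate 2. Of the other 2 probe sets of Bgn, 1 gave 0.34 ± 0.15 and the other −0.20 ± 0.48. Fmod, which encodes fibromodulin, was the exception, at −0.22 ± 0.31, and its 5 other probe sets ranged from −0.74 to 0.07.

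Several of these proteoglycan genes lie side by side in the genome, and neighbours stood at different values. Aspn at 1.06 sits next to Omd, which stood at 0.00 ± 0.30, Ecm2 at 0.10 ± 0.44 and Ogn at 0.23. Dcn at 0.55 and Lum at 0.28 sit beside Kera and Epyc, both under the floor. Prelp at 0.48 lies near Fmod at −0.22 and Optc at 1.05 ± 0.55. The differences between neighbours were not tested.

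Among elastic fibre genes, 8 of the 10 tested stood higher, with a median log2 change of 0.25, and none was called. Without mesonephros-derived replicate 2 the median was 0.45, and without replicate 3 it was 0.39. It was 0.21 without ovary-derived replicate 3 and 0.18 with the mean of probe sets. Efemp1 encodes fibulin 3, a short fibulin of elastic tissues, and had the largest log2 change of all 38 genes. It read 3334, 498 and 1642 in mesonephros-derived cells and 607, 458 and 319 in ovary-derived cells. Replicates 1 and 3 stood far above the ovary-derived arrays and replicate 2 within them. Its log2 change was 1.62 ± 0.60 (SE), with a limma adjusted p of 0.317, and it ranged from 1.00 without mesonephros-derived replicate 1 to 2.35 without replicate 2.

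Mfap5, a microfibril-associated glycoprotein that binds fibrillins, had its low replicate elsewhere. It read 1512, 3626 and 3594 in mesonephros-derived cells and 1589.8, 1432 and 991 in ovary-derived cells. Here replicate 1 fell inside the ovary-derived range and replicates 2 and 3 well above it. On the log2 scale the difference was 1.03 ± 0.36 (SE, with limma's adjusted p = 0.300). Without mesonephros-derived replicate 1 it was 1.45 ± 0.23 and passed the threshold (limma adjusted p = 0.0416), the only matrix gene among 38 to do so in that fit, where 0.394% of all genes were called. With the spike covariate it was 1.92 ± 0.61. Mfap2, the related microfibril glycoprotein, had the same low replicate 1 (834, against 2544 and 2447 in replicates 2 and 3 and 1358 to 1901 in ovary-derived cells), and its log2 change was 0.06 ± 0.41.

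Eln, the gene of elastin itself, read 2201, 1196 and 1187 against 936, 883 and 1008. All 3 mesonephros-derived arrays were above the ovary-derived ones, and replicate 1 stood apart. This gave a log2 change of 0.63 ± 0.28 (SE, with limma's adjusted p = 0.369), and 0.34 without mesonephros-derived replicate 1. Eln stood at 0.13 once the spike level was in the fit. A second probe set of Eln gave 1.15 ± 0.36. Emilin1, which encodes a glycoprotein at the interface of elastin and microfibrils, read 1801, 1284 and 1429 against 1096, 1266 and 1108. The groups were separate by a small margin, and the log2 change was 0.36 ± 0.22 (limma adjusted p = 0.482). It was 0.23 without mesonephros-derived replicate 1 and 0.75 with the mean of its probe sets.

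Fbn2, the gene of fibrillin 2, was, by the probe set that stands for each gene, the only matrix gene lower at an unadjusted p of 0.05 and the only lower one without overlap. Fibrillin 2 is best known from microfibrils laid down during development. Fbn2 read 2335, 4152 and 4382 in mesonephros-derived cells against 5607, 5202 and 5808 in ovary-derived cells. All mesonephros-derived arrays were below all ovary-derived ones, and replicate 1 was the lowest. The fitted log2 change was −0.66 ± 0.25 (SE, with limma's adjusted p = 0.319), and −0.37 without mesonephros-derived replicate 1. Fbn2 stood at −0.22 with the spike covariate and with the mean of its probe sets at −0.32. Its second probe set gave 0.02 ± 0.19.

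The other elastic fibre genes overlapped between the groups. Fbln1, which encodes fibulin 1, read 5161, 3036 and 3438 against 2123, 3095 and 2651, which gave 0.54 ± 0.25 on the log2 scale (limma adjusted p = 0.377), and its 2 other probe sets stood at −0.27 ± 0.30 and −0.29 ± 0.26. Without mesonephros-derived replicate 1 Fbln1 stood at 0.32. Fbln5, which encodes a fibulin needed for elastic fibre assembly, stood at −0.33 ± 0.27. Mfap4 stood at 0.14 ± 0.25 and Emilin2 at 0.02 ± 0.29. Fbln2, under the floor, read 173, 143 and 38.4 against 81.2, 68.0 and 95.6.

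All 3 lysyl oxidase genes tested stood higher, with a median log2 change of 0.81 and none called. The median was 0.28 without mesonephros-derived replicate 1 and 0.25 with the mean of probe sets. That mean takes in a probe set of Lox under the floor, with array signals from 2.02 to 19.6, which gave −0.26. Loxl3 read 3122, 1660.1 and 2119.8 in mesonephros-derived cells and 1276, 1040.1 and 1481 in ovary-derived cells. The groups did not overlap, with a log2 change of 0.82 ± 0.27 (SE), 1.76-fold, and a limma adjusted p of 0.288. Lox, the founding enzyme of the family, read 1636, 389 and 724 against 292, 629.9 and 443. Replicate 2 was inside the ovary-derived range, the log2 change was 0.81 ± 0.51 (limma adjusted p = 0.492), and it was 0.28 without mesonephros-derived replicate 1 and 1.30 without replicate 2. A second probe set of Lox gave 0.18 ± 0.31. Loxl1, the family member tied most closely to elastin upkeep, stood at 0.13 ± 0.24.

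**Figure D2:**
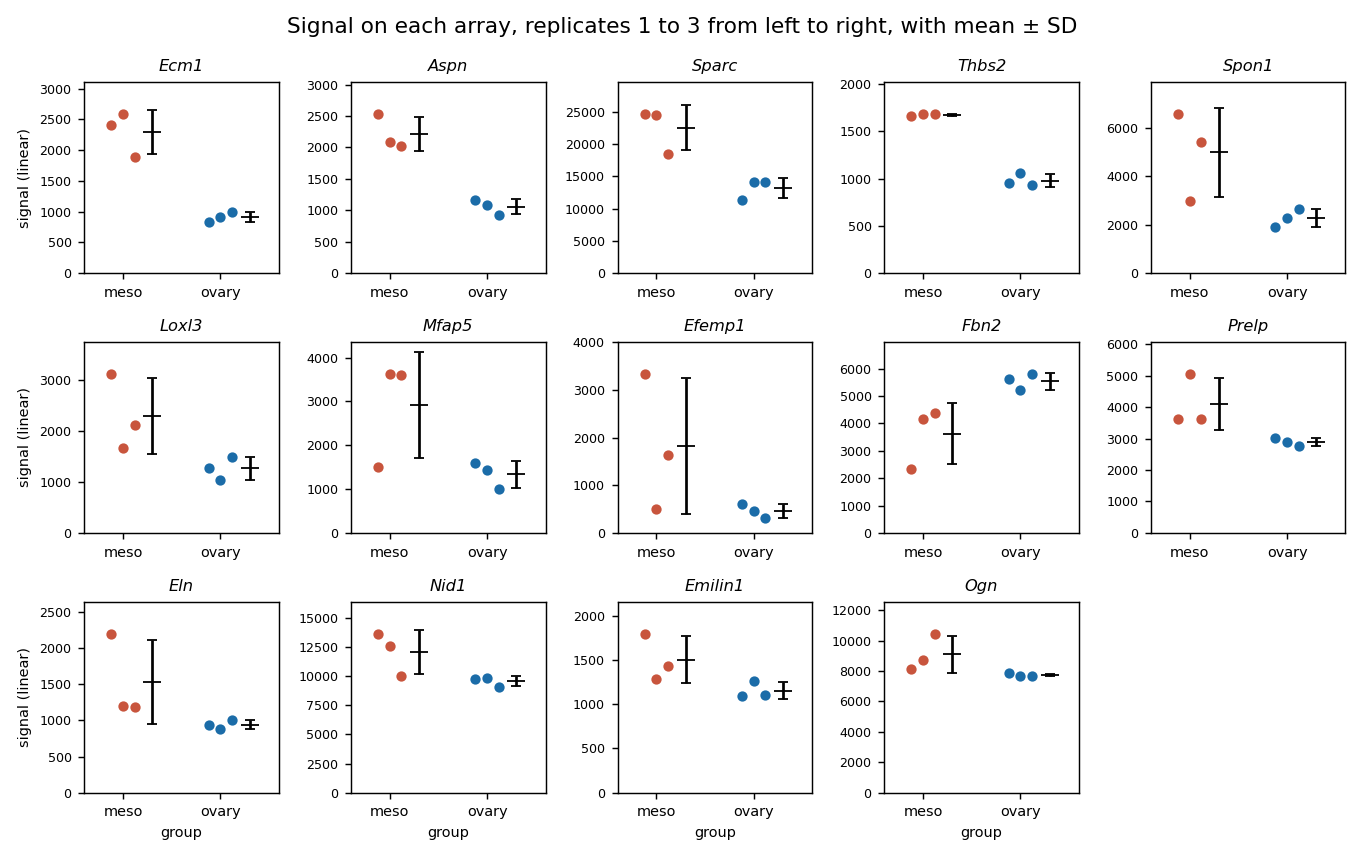
Signal of the 14 matrix genes with an unadjusted limma p under 0.05 or without overlap between groups, in order of p, on a linear axis that starts at 0. Points are the 3 arrays of each group (meso, mesonephros-derived; ovary, ovary-derived) and bars show the mean and SD. The groups are apart in 12 panels and overlap for Mfap5 and Efemp1.

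Fibronectin, the tenascins, the thrombospondins and periostin lay on both sides of no change: 4 of 8 stood higher, and the median log2 change was 0.13. Leaving out 1 array moved that median between −0.019, without mesonephros-derived replicate 3, and 0.73, without replicate 2. Beside Thbs2, Thbs4 read 1892, 824 and 2314 against 1299, 1245 and 973 (log2 change 0.40 ± 0.37 SE), and Thbs3 stood at 0.91 ± 0.67 with array values from 34.2 to 366. Both overlapped between groups. Thbs4 ranged from 0.10 without mesonephros-derived replicate 3 to 0.84 without replicate 2, and Thbs3 from 0.25 without ovary-derived replicate 1 to 1.41 without ovary-derived replicate 2. Thbs1, whose product activates latent TGF-beta, stood at −0.15 ± 0.22. Its second probe set read 1986, 2427 and 2644 against 3493, 3508 and 3557, without overlap, at −0.59 ± 0.18 (limma adjusted p = 0.296 in a fit over all probe sets).

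Fn1, which encodes fibronectin, read 11028, 4813 and 3989 against 3647, 4153 and 4558. Mesonephros-derived replicate 1 stood alone, and the log2 change of 0.54 ± 0.34 (SE, with limma's adjusted p = 0.503) was 0.095 without it and −0.42 with the spike covariate. Tnc, the gene of tenascin C, a protein of remodelling tissue, read 870.0, 4863 and 3024 against 2237, 2808 and 2822. Replicate 1 was below and replicate 2 above every ovary-derived array, so the log2 change of −0.15 ± 0.52 turned to 0.55 without replicate 1. Tnxb, the gene of tenascin X, spread still wider, at 698, 32.3 and 267 against 182, 402 and 190.5. Postn, the gene of periostin, read 154, 154 and 303 against 307, 409 and 288, with replicate 3 inside the ovary-derived range (log2 change −0.73 ± 0.39, limma adjusted p = 0.436), and it was 0.23 with the spike covariate.

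In the class of SPARC relatives, spondins and Ecm1, 4 of the 5 tested genes stood higher, with a median log2 change of 0.77. Of these, 3 (Ecm1, Sparc and Spon1) did so without overlap (60% of the class, against 9.56% of all genes tested). The class median was 0.14 after quantile normalization, 0.29 with the spike covariate and −0.054 with the mean of probe sets. Spon1 encodes F-spondin, a secreted adhesion protein that also guides axons. It read 6553, 2979 and 5415 in mesonephros-derived cells and 1905, 2255 and 2633 in ovary-derived cells. The groups were separate, with replicate 2 close to the ovary-derived arrays. On the log2 scale this came to 1.07 ± 0.29 (SE), 2.10-fold, with a limma adjusted p of 0.246, and its 3 other probe sets stood at 0.89, 1.29 and 0.06. Sparcl1 encodes the SPARC-like protein hevin. It read 2388, 5857 and 4071 against 4419.9, 3925 and 3677, so the mesonephros-derived arrays lay on both sides of the ovary-derived ones (−0.05 ± 0.30). Smoc2, a calcium-binding relative of SPARC, stood at 0.07 ± 0.25, and its second probe set at −0.53 ± 0.21. Both probe sets of Spon2 had means under the floor, and 1 of them read 233 on mesonephros-derived replicate 1 and at most 41.8 on the other arrays.

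Of the basement membrane genes 3 of 5 stood higher, with a median log2 change of 0.06. The spike covariate turned it to −0.28 and array weights to −0.065, and leaving out mesonephros-derived replicate 2 gave 0.23. Nid1, which encodes the nidogen that links laminin to collagen IV, read 13666, 12647 and 9984 against 9738, 9884 and 9087. The groups were barely separate, and the log2 change of 0.33 ± 0.17 (SE, with limma's adjusted p = 0.424) turned to −0.11 after quantile normalization. A second probe set of Nid1 read 10603.5, 10478.5 and 9431 against 6832, 7352 and 8496, without overlap, at 0.43 ± 0.16. Another, much dimmer, gave −0.008 ± 0.46. Nid2 stood at 0.06 ± 0.20. Hspg2, the gene of perlecan, read 3249, 847 and 1562 against 2012, 1485 and 1511, with mesonephros-derived arrays on both sides (−0.02 ± 0.42). A second probe set of Hspg2 gave 0.14 ± 0.29. Npnt, the gene of the integrin ligand nephronectin, read 702, 63.2 and 305 against 508, 336 and 397 (−0.69 ± 0.70), and its other 3 probe sets past the floor stood from −1.55 to −0.49. The lowest of these read 71.6, 41.0 and 67.0 against 355, 208 and 111, without overlap. Without mesonephros-derived replicate 2, Npnt stood at 0.18. Matn2, an adaptor of filaments around cells, stood at 0.29 ± 0.27.

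**Figure D3:**
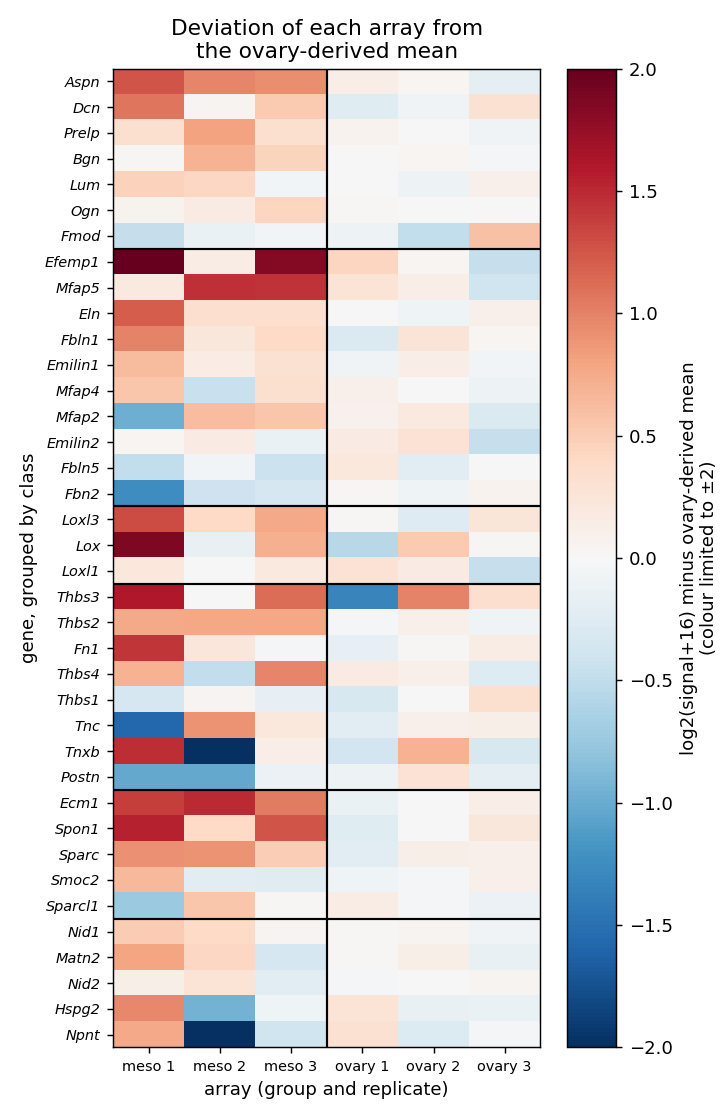
Log2(signal + 16) of each array minus the ovary-derived mean of that gene, for the 38 tested matrix genes in rows grouped by class and the 6 arrays in columns. Red is higher and blue lower, limited to 2 log2 units. Aspn, Thbs2 and Ecm1 are red on all 3 mesonephros-derived arrays, while Tnc, Tnxb and Npnt differ in sign between them.

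The 3 mesonephros-derived arrays did not carry the matrix genes equally. The mean deviation of the 38 genes from the ovary-derived mean was 0.52, 0.11 and 0.34 log2 units in replicates 1, 2 and 3, where the ovary-derived arrays scattered with an SD of 0.06. Replicate 1 was the highest of the 3 arrays for 21 of 38 genes, replicate 2 for 12 and replicate 3 for 5. In replicate 1, 26 genes lay above every ovary-derived array (68.4%, against 36.1% of all tested genes), in replicate 2, 20 (52.6% against 36.1%), and in replicate 3, 22 (57.9% against 29.1%). The leucine-rich proteoglycans had the most even class mean, at 0.39, 0.43 and 0.37 in replicates 1, 2 and 3. Each of its genes varied more than that mean. Dcn stood at 1.06, 0.06 and 0.52, Bgn at 0.03, 0.70 and 0.45, and Aspn at 1.26, 0.98 and 0.94. The lysyl oxidases stood at 1.13, 0.08 and 0.55, and the basement membrane class at 0.63, −0.45 and −0.19.

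The number of higher members did not rest on any 1 array. It lay between 27 and 30 when each array was left out, with median log2 changes of 0.26 to 0.39. It did depend on the scaling of the arrays. After quantile normalization 23 of 38 members stood higher (60.5%, against 44.4% of all genes) and the median was 0.10, beside −0.06 for all genes tested. Sparc stood at 0.77 before and 0.14 after, Bgn at 0.39 and 0.04, and Dcn at 0.55 and 0.14, while Ecm1, Aspn, Thbs2, Mfap5, Efemp1 and Loxl3 each moved by less than 0.05. Of the 38 members, 25 lay in the brightest 2926 of all genes tested. The median change of those 2926 genes was 0.03, and in the 3 dimmer sets of like size it was −0.14 to −0.11.

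**Figure D4:**
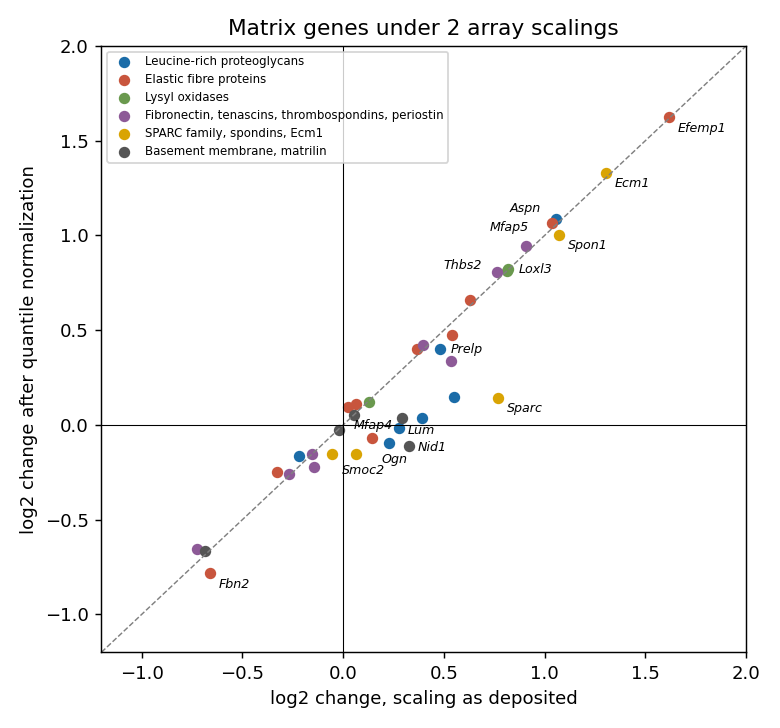
Log2 change of the 38 tested matrix genes with the deposited scaling (horizontal) and after quantile normalization (vertical), coloured by class, with the dashed line marking equal values. Named are genes at an unadjusted limma p under 0.05 and genes that changed sign. Most genes lie on or near the line. Sparc, Nid1, Ogn, Lum, Mfap4 and Smoc2 lie below it, as do Dcn, Bgn, Matn2 and Fn1, which are not named.

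Array weights estimated by limma were 0.224, 0.352 and 1.07 for mesonephros-derived replicates 1, 2 and 3, and 1.69, 4.49 and 1.57 for the ovary-derived replicates. The weighted mesonephros-derived mean therefore leaned on replicate 3, the array that correlated more closely with the ovary-derived arrays than with its own group. With these weights, 4 matrix genes passed an adjusted p of 0.05, against a background of 1.1% of all genes. They were Ecm1 at 1.18 ± 0.22 (limma adjusted p = 0.0167), Spon1 at 1.12 ± 0.23 (0.0267), Mfap5 at 1.23 ± 0.27 (0.0395) and Aspn at 0.97 ± 0.22 (0.0419). Under the other alternatives the adjusted p of Ecm1 lay between 0.0535 and 1.00, and no member was called in any of them apart from Mfap5 without mesonephros-derived replicate 1.

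A second list held matrix genes outside the 43, among them latent TGF-beta binding proteins, CCN proteins, SLIT proteins and further proteoglycans. Of its 70 genes with a probe set, 45 passed the floor. Of these, 28 stood higher (62.2%, against 43.5% of all genes tested), and 0 were called in limma (background 0.0427%). At an unadjusted p of 0.05, 10 were higher (22.2%, background 6.46%) and 2 lower (background 7.22%). In either direction this was 26.7% of the list, beside 26.3% of the 38 matrix genes. The median log2 change was 0.15. The 6 with the smallest p were Igfbp7, a secreted protein that binds insulin-like growth factors, at 1.00 ± 0.23 (SE), Fstl1, a follistatin-like relative of SPARC, at 0.60 ± 0.16, Slit3, a guidance ligand, at 1.11 ± 0.34, Crispld2 at 1.38 ± 0.43, Vtn, the gene of vitronectin, at −1.32 ± 0.45, and Adamtsl2, which binds fibrillin microfibrils, at 0.96 ± 0.34. Their limma adjusted p-values lay between 0.207 and 0.311. Next by p came Slit2, the other lower gene at an unadjusted p of 0.05, at −2.20 ± 0.79 (limma adjusted p = 0.311). Slit2 read 272, 7.30 and 79.0 in mesonephros-derived cells against 466, 318 and 367 in ovary-derived cells, without overlap.

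Markers of cell types were read beside the matrix genes. Of all genes tested, 43.5% stood higher and 0.0427% were called. All 17 smooth muscle and pericyte markers stood higher, 2 of them called (Myh11 and Tagln), and their summed signal was 111190 to 141564 in mesonephros-derived and 56168 to 67393 in ovary-derived cells. The smallest changes among them were in pericyte markers that overlapped between groups. These were Abcc9 (0.03 ± 0.26 SE), Kcnj8 (0.03 ± 0.41), Cspg4 (0.07 ± 0.32) and Pdgfrb (0.28 ± 0.25). Rgs5, Mcam and Notch3, also found in pericytes, stood at 0.83 ± 0.21, 0.67 ± 0.28 and 0.49 ± 0.28. Of 12 tested theca and stromal markers 9 stood higher and 0 were called, with the steroid enzyme gene Cyp17a1 at 2.67 and Col1a1 at 1.00. The 3 lower ones were Gli1 at −0.81 ± 0.50 (SE), Ptch1 at −0.08 ± 0.23 and Pdgfra at −0.02 ± 0.17. The summed signal of the 12 markers was 119797 to 159951 against 88221 to 101389. Endothelial markers stood lower for 10 of 12, with summed signals of 4784 to 11512 against 7662 to 12301, and macrophage markers for 8 of 8, with 1328 to 12804 against 5450 to 8530. Mesonephros-derived replicate 2 was not lower in either list. Mean deviations from the ovary-derived mean in replicates 1, 2 and 3 were −1.96, 0.07 and −1.21 for endothelial markers. For macrophage markers they were −2.99, 0.43 and −0.68. Granulosa markers stood higher for 4 of 5 tested, with sums of 17974 to 21376 against 16112 to 18345, and Fshr and Amh lay under the floor. All 8 markers of the ovarian surface epithelium lay under the floor. The matrix genes summed to 147073 to 179372 against 116535 to 122721. The sum over all genes tested was also higher, at 15560600 to 18100900 against 14863500 to 15190400. The part of smooth muscle or other cells in the level of the matrix genes was not tested.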

How the data were processed

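Gene expression was measured on 1-colour oligonucleotide arrays in 6 samples, 3 per group. The authors deposited linear probe set intensity values, which the submitters' processing notes tie to MAS5. The labels and notes name no version or settings for it. Each deposited array had a mean of 500.0 after trimming 2% at each end. RNA was amplified by volume and not by mass, per the labels' protocols.

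Of 45101 probe sets, 64 controls were left out, and 34945 had 1 gene symbol in the platform annotation, 932 several and 9160 none used here. Values were moved to log2(signal + 16), a scale on which folds of dim genes are understated. All 11703 genes past the floor were fitted with limma 3.58.1 in R 4.3.3 (lmFit, eBayes with an intensity trend) and adjusted by Benjamini-Hochberg. The SE is from that fit. The code was tested on simulated data. With 3 arrays against 3, an exact permutation test cannot go below p = 0.1.

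The members, classes and lists were chosen with earlier results of these data known. Per-array values are given for members at an unadjusted p under 0.05 or without overlap, and other members are given by level, change or range. Other probe sets come from a fit over all probe sets past the floor. Settings that change values or arrays choose probe sets and floor anew. The mean of probe sets took in every probe set of a gene, also those under the floor. Alternatives were pseudocounts of 1 and 64, the mean of probe sets, no floor or one at the 60th percentile, median centring, quantile normalization, no _x_at or _s_at probe sets, no trend, array weights, the replicate number as a block, a poly-A spike covariate and leaving out each array.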

Additional observations from a re-analysis of the deposited data

How the results depend on the processing

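Of the 38 tested members, 16 kept their direction under every alternative in which they were tested. This was all 18 for each but Thbs3, which lay under the floor at the 60th percentile. The median log2 change of the members, 0.31, was 0.10 after quantile normalization, and the count called, 0, was 4 with array weights. Leaving out 1 array gave 27 to 30 members higher, 0 to 1 called and medians of 0.26 to 0.39. Deviations of same-numbered replicates correlated at −0.01 to 0.07. With 3 arrays per group this cannot show whether the replicate numbers pair the samples. With the replicate number as a block, 28 members were higher and 0 were called. The cause of the changes of sign below was not tested. The number of arrays limits the precision.

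Signs turned after quantile normalization for Lum (−0.017), Ogn (−0.10), Mfap4 (−0.070), Smoc2 (−0.15) and Nid1 (−0.11), and after median centring for Sparcl1 (0.024) and Hspg2 (0.057). With the mean of probe sets they turned for Fbln1 (−0.0044), Fbln5 (0.16), Sparc (−0.077), Smoc2 (−0.23) and Hspg2 (0.060), and without _x_at and _s_at probe sets for Fmod (0.040) and Hspg2 (0.14). The mean for Fbln5 takes in its other probe set, which lay under the floor with signals from 5.78 to 39.7 and gave 0.64. With array weights signs turned for Fmod (0.061), Emilin2 (−0.16), Tnc (0.079), Sparcl1 (0.042), Smoc2 (−0.10), Nid2 (−0.065) and Matn2 (−0.064). With the poly-A spike covariate they turned for Lum (−0.24), Fn1 (−0.42), Tnc (0.32), Tnxb (0.35), Postn (0.23), Sparcl1 (0.18), Smoc2 (−0.46), Nid1 (−0.0017), Nid2 (−0.37) and Matn2 (−0.50). Over the fits without 1 array, values that crossed 0 ranged from −0.47 to 0.075 for Fmod, −0.21 to 0.17 for Emilin2, −0.21 to 0.59 for Mfap2, −0.059 to 0.44 for Mfap4, −0.10 to 0.27 for Loxl1, −0.68 to 0.55 for Tnc, −1.14 to 0.80 for Tnxb, −0.30 to 0.016 for Thbs1, −0.36 to 0.29 for Sparcl1, −0.23 to 0.22 for Smoc2, −0.057 to 0.19 for Nid2, −0.52 to 0.44 for Hspg2 and −1.41 to 0.18 for Npnt.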
